A study of Arabidopsis thaliana with 6 samples.

Results

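The light reactions of photosynthesis run on proteins from both the nuclear and the plastid genome, and 45 nuclear genes of this machinery were followed in Arabidopsis inflorescences. They were chosen by gene identifier and not by a cut on their values, though with earlier results of these data known. They are 20 antenna genes (6 LHCA and 14 LHCB), 22 photosystem subunit genes (12 of photosystem I and 10 of photosystem II), and 3 genes for electron carriers, the plastocyanin genes PETE1 and PETE2 and the Rieske protein gene PETC. All 45 were among the 33610 genes counted in each library and among the 25458 with a count in at least 1 library, which were tested.

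The tissue was the inflorescence meristem with flower buds up to stages 10 to 11, taken from plants grown side by side in long days, and RNA was poly(A) selected. There were 2 libraries from sep1sep2sep3 SEP3, the sep1sep2sep3 mutant expressing SEP3, each from an independent line, then 2 libraries labelled sep1sep2sep3 and 2 libraries labelled sep1sep2. The mutations in SEP1 and SEP2, genes for SEPALLATA factors that specify floral organs, were shared by all 6 libraries, and a wild type was not analysed here. The promoter driving SEP3 in the lines and the hour of harvest are not given in the sources used here. For sep1sep2sep3 and sep1sep2, nothing says that the replicates came from separate plants, so p-values measure only the spread between these libraries.

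In the thylakoid membrane of the chloroplast, photosystem II and its LHCB antenna split water, and photosystem I and its LHCA antenna pass the electrons on to ferredoxin, with the cytochrome b6f complex and plastocyanin between them. The nucleus encodes the LHCA and LHCB antenna proteins and many of the outer subunits, while the reaction centre proteins that hold most cofactors are encoded in the plastid. Antenna genes are known to follow light, the circadian clock, chloroplast state and the GLK transcription factors, and green sepals, carpels and young anthers all carry chloroplasts.

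The libraries held 24000063 to 31263376 counts. SEP3 itself stood at 489.5 and 332.0 CPM (counts scaled to library size after TMM normalization) in the sep1sep2sep3 SEP3 lines, at 149.5 and 150.9 CPM in the libraries labelled sep1sep2sep3, and at 130.4 and 136.0 CPM in sep1sep2. It was thus not lower in the libraries labelled sep1sep2sep3 than in sep1sep2, and every direction between those genotypes rests on the labels. SEP2 had 16.65 and 108.4 CPM in the SEP3 lines, 15.54 and 11.53 CPM in the libraries labelled sep1sep2sep3, and 79.15 and 44.34 CPM in sep1sep2, and SEP1 stayed at or under 5.598 CPM in every library. Markers of the labelled tissue (LFY, AP1, AG, AP3, PI and STM) were present at 17.48 CPM or more in every library, but not evenly. AP1 had 185.5 and 160.6 CPM in the SEP3 lines. It had 384.2 and 373.1 CPM in the libraries labelled sep1sep2sep3 and 213.9 and 205.4 CPM in sep1sep2. By the edgeR test given below, LFY and AP1 were higher and PI lower in the libraries labelled sep1sep2sep3 than in sep1sep2. AG, AP3 and STM did not pass it. Organ markers differed between genotypes. The summed level of 14 tapetum and pollen wall genes was 3006 and 1783 CPM in the SEP3 lines, 262.6 and 189.1 CPM in the libraries labelled sep1sep2sep3, and 2613 and 3144 CPM in sep1sep2. That of 10 carpel and ovule genes was 125.6 and 133.3 CPM in the SEP3 lines, 69.89 and 58.32 CPM in the libraries labelled sep1sep2sep3, and 128.9 and 132.8 CPM in sep1sep2. Most of the sum in the libraries labelled sep1sep2sep3 came from SPT (30.58 and 24.89 CPM) and NGA1 (21.31 and 20.62 CPM). Against sep1sep2, 8 of the 10 fell and 1 (NGA1) rose by the edgeR test given below, against 10% and 5.74% of all genes. The list median of the log2 fold change was -2.49. In bulk tissue, fewer cells of a type and less RNA per cell cannot be told apart, and the part of these organ differences in the results on the 45 genes was not tested. Plastid genes, psbA, psbD, psbC, psaB, psaA and psbB among them, had no counts in any library, so the reaction centre itself could not be followed.

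The LHCB1 genes encode the main protein of the trimeric light-harvesting complex, and they carried the widest spread of responses reported below. LHCB1.1, LHCB1.2 and LHCB1.3 lie side by side on chromosome 1, while LHCB1.4 and LHCB1.5 lie on chromosome 2. Over 804 coding bases LHCB1.1 was identical to LHCB1.2 at 95.6% and to LHCB1.3 at 96.1%, while the 250 bases upstream of their start sites were identical at only 49.3 and 43.9%. No stretch of 150 bases in the exons of any LHCB1 gene recurred exactly elsewhere in the genome, and among the 45 genes such repeats were found only in LHCB2.1 (0.271% of its windows) and LHCB2.2 (0.355%). Since the authors dropped reads that map to several places, counts of these near-identical copies may still be low and are uncertain. The upstream sequences of 4 LHCB1 genes and of LHCB2.3 are shown because these genes hold the largest changes or, for LHCB1.3, lie beside one that does. They come from the RefSeq copy of build TAIR10.1, run 5' to 3' on the strand of the gene, and end at the base before the annotated start. Capitals mark the motifs CACGTG (G-box), CCAATC and AANAATCT (a motif known from binding by the clock protein CCA1), each searched on both strands.
LHCB1.1 (chr1:10475970-10476219, minus strand): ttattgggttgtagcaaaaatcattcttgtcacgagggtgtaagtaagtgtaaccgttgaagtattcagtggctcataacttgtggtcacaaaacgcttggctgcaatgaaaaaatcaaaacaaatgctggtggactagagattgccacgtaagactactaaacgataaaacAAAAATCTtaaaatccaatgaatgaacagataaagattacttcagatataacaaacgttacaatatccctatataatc
LHCB1.2 (chr1:10473503-10473752, minus strand): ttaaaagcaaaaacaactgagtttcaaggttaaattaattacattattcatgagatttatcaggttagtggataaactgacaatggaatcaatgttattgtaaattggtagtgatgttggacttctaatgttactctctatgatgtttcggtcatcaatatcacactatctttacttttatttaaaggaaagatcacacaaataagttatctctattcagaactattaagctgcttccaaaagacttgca
LHCB1.3 (chr1:10477635-10477884, plus strand): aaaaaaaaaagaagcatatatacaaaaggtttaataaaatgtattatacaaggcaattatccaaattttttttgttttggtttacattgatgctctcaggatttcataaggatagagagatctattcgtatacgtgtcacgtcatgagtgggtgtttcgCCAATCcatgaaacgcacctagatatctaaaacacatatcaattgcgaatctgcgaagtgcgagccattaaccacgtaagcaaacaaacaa
LHCB1.4 (chr2:14524357-14524606, plus strand): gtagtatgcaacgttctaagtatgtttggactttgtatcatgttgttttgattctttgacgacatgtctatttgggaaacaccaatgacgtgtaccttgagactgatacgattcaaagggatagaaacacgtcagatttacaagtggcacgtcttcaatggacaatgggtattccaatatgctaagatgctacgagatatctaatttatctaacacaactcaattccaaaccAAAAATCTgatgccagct
LHCB2.3 (chr3:10255656-10255905, plus strand): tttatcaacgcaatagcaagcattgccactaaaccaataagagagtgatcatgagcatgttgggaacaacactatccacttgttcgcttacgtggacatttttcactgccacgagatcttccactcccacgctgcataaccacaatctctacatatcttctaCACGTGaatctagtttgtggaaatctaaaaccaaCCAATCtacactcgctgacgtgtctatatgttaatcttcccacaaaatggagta

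LHCB1.1 and LHCB1.4 held the AANAATCT letters, 78 and 18 bases before the start, LHCB1.3 held CCAATC 91 bases before it, and LHCB1.2 held none of these motifs. LHCB2.3 held both a G-box and CCAATC, 88 and 54 bases before its start. Across the 45 genes CCAATC was found upstream of 10 of 20 antenna genes, 1 of 22 photosystem subunit genes (PSBQ2) and 2 of 3 electron carrier genes (PETE2 and PETC), against 10.2% of 27443 nuclear protein-coding genes over the same length. The G-box was found in 17.8% of the 45 genes against 6.49% of all genes, the I-box core GATAAG in 24.4% against 12.3%, AANAATCT in 22.2% against 13.4%, the evening element AAATATCT in 2.22% against 4.79%, and TATAAA in 46.7% against 47.3%. The CArG box, the motif that MADS proteins such as SEP3 bind, was found in 0 of 45 of these windows and in 2.52% of all genes. With so low a share in all genes, 0 of 45 does not set these genes apart. The paper also describes non-canonical CArG boxes, and it assigned bound regions to genes over a wider span than these windows. Whether SEP3 binds near the 45 genes was therefore not tested. All these motif matches describe letters in a short window and not sites in use.

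Most of the 45 genes were abundant, with 37 to 41 of them among the top 1000 genes of each library by CPM, while the lowest member ranked between 6057 and 9491. Together they took 3.36 and 2.97% of all counts in the SEP3 lines, 4.81 and 5.3% in the libraries labelled sep1sep2sep3, and 3.99 and 3.95% in sep1sep2. The ranges of the 3 genotypes did not overlap, with the libraries labelled sep1sep2sep3 highest and the SEP3 lines lowest. LHCB1.3 was the first or second most abundant gene in every library, and 18 and 12 of the 45 genes stood among the top 100 in the SEP3 lines, 23 and 27 in the libraries labelled sep1sep2sep3, and 18 and 19 in sep1sep2. Per kb of exon, LHCB1.3 averaged 4805 ± 1150 CPM (SD, n = 6 libraries), followed by LHCB1.5 with 2690 ± 566 CPM. At the other end were LHCB1.4 with 38.1 ± 20.1 CPM per kb and LHCA6 with 27.13 ± 6.32 CPM per kb, whose ranges over the libraries overlapped.

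**Figure D1:**
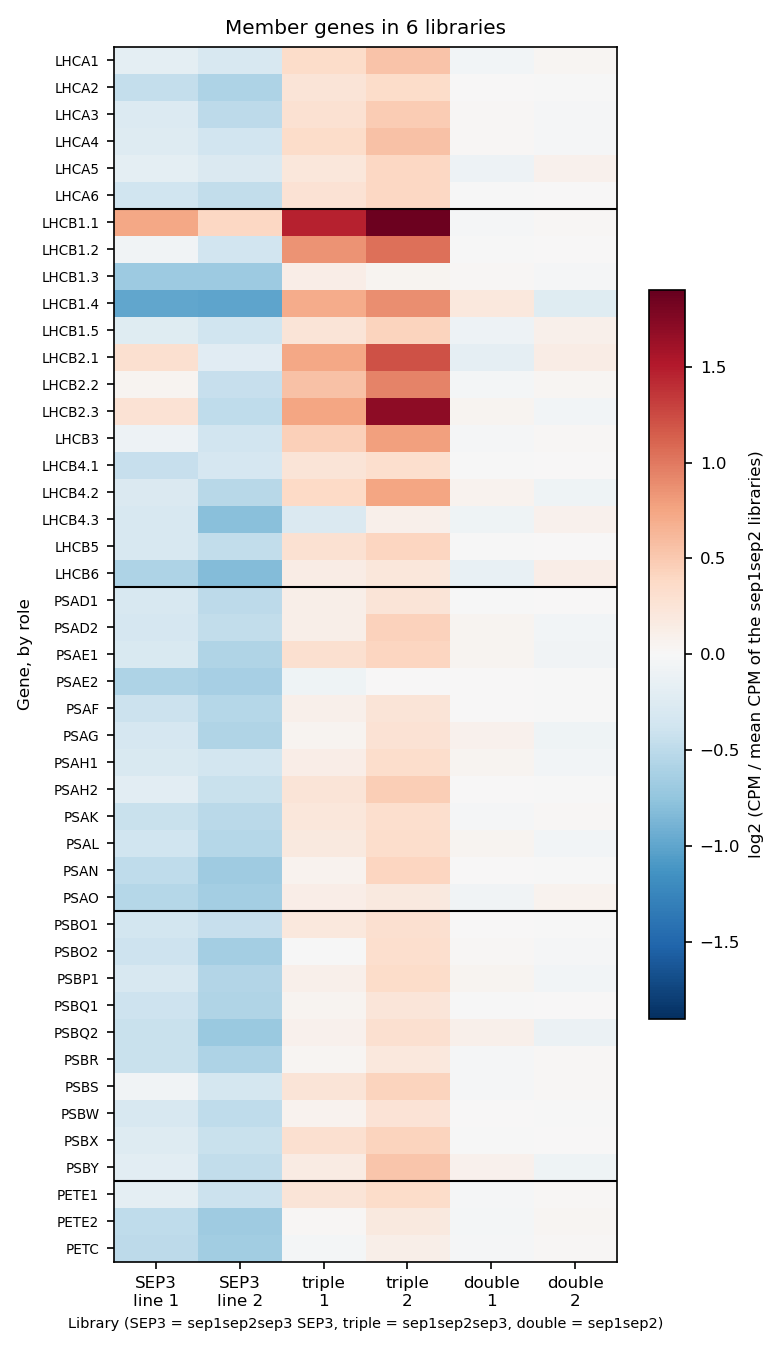
Heat map of the 45 genes (rows, grouped by role between black lines) in the 6 libraries (columns), coloured by log2 of the CPM over the mean CPM of the sep1sep2 libraries. The columns of the libraries labelled sep1sep2sep3 are mostly red, most of all for LHCB1.1 and LHCB2.3, and those of the SEP3 lines are mostly blue, with LHCB1.1 red in both lines.

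The first comparison asked how the 45 genes differ between the libraries labelled sep1sep2sep3 and sep1sep2. By edgeR's quasi-likelihood test with Benjamini-Hochberg adjustment over all genes (FDR), 12 of the 45 genes rose at an FDR under 0.05 and 0 fell, against 5.74% of all genes tested that were higher and 10% that were lower by this rule. Of these, 11 were antenna genes, 1 was a photosystem subunit gene and 0 were electron carrier genes. With the study's added threshold, a log2 fold change above 1, 2 genes were called (LHCB1.1 and LHCB2.3), both higher, as were 0.939% of all genes, while 7.3% were lower. The median log2 fold change was 0.42 over the 20 antenna genes and 0.23 over the 22 photosystem subunit genes, beside -0.03 over all genes tested. The libraries of the genotypes did not overlap for 38 of the 45 genes, all higher, as was the case for 25.2% of all genes (29.8% were lower).

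Among the antenna genes the largest rise was that of LHCB1.1 (AT1G29920), with 2653 and 3524 CPM in the libraries labelled sep1sep2sep3, against 954.1 and 975.2 CPM in sep1sep2. Its log2 fold change was 1.68 ± 0.15 (standard error) with an FDR of 2.88e-06. LHCB2.3 (AT3G27690), one of the LHCB2 genes whose proteins are phosphorylated when the antenna moves between photosystems, had 167.4 and 324.7 CPM against 102.7 and 96.43 CPM in sep1sep2. All 4 values lay apart by genotype, but the replicates labelled sep1sep2sep3 differed widely from each other. The log2 fold change of LHCB2.3 was 1.31 ± 0.25 with an FDR of 0.00218, and without the second library labelled sep1sep2sep3 it was 0.75 with an FDR of 0.067. LHCB2.1 and LHCB2.2 rose as well, with 835.2 and 1161 CPM of LHCB2.1 against 448.9 and 557.6 CPM in sep1sep2, and 886.1 and 1157 CPM of LHCB2.2 against 585.3 and 617.1 CPM. Their log2 fold changes were 0.99 and 0.76, at FDR 0.00139 and 0.00365 by edgeR's test. LHCB1.2 and LHCB1.4 rose by log2 fold changes of 0.96 and 0.80, with FDR of 0.000128 and 0.000839.

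LHCB3, whose protein joins the same trimers, rose by 0.63 and LHCB4.2, for a monomeric antenna protein next to the photosystem II core, by 0.58 on the log2 scale. In the photosystem I belt, LHCA1, LHCA3 and LHCA4 rose by 0.45, 0.38 and 0.46, with FDR of 0.0174, 0.0442 and 0.0167 by edgeR's test. They passed in 9, 6 and 10 of 13 alternative settings described below. LHCA4, the most abundant LHCA gene per kb, had 2162 and 2518 CPM in the libraries labelled sep1sep2sep3, against 1735 and 1672 CPM in sep1sep2. The 9 antenna genes that did not pass the test had log2 fold changes from -0.08 (LHCB4.3) to 0.35 (LHCB5). The most abundant member, LHCB1.3, was among them, with 7201 and 6857 CPM in the libraries labelled sep1sep2sep3 and 6695 and 6507 CPM in sep1sep2, values that lie close together (log2 fold change 0.09 ± 0.12, FDR 0.661).

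Photosystem subunit genes differed less between these genotypes. PSBX, for a small membrane subunit of photosystem II, was the one that rose, with 733.9 and 801.2 CPM in the libraries labelled sep1sep2sep3 against 594.3 and 598.7 CPM in sep1sep2 (log2 fold change 0.36 ± 0.11, FDR 0.04). It passed in 7 of 13 alternative settings described below. The other 21 had log2 fold changes from -0.03 to 0.36, and 18 of the 22 had libraries that did not overlap. At the low end, PSAE2, for a subunit at the ferredoxin docking site of photosystem I, had 182.3 and 194.5 CPM in the libraries labelled sep1sep2sep3, between which lay the 194.1 and 191.0 CPM of sep1sep2. PSBR had 1058 and 1191 CPM against 1023 and 1045 CPM in sep1sep2, a log2 fold change of 0.12. Of the electron carriers, PETC had 438.7 and 483.8 CPM against 443.7 and 455.6 CPM in sep1sep2 (log2 fold change 0.04), and PETE2 had 1029 and 1143 CPM against 985.1 and 1034 CPM (0.11).

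The count of genes that rose rested in part on single libraries. It was 4 (LHCB1.1, LHCB1.2, LHCB1.4 and LHCB2.1, the genes that passed in all 13 other settings) without the second library labelled sep1sep2sep3, and 6 without the second sep1sep2 library. Without the second library labelled sep1sep2sep3, the median log2 fold change was 0.32 over the antenna genes and 0.11 over the photosystem subunit genes.

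**Figure D2:**
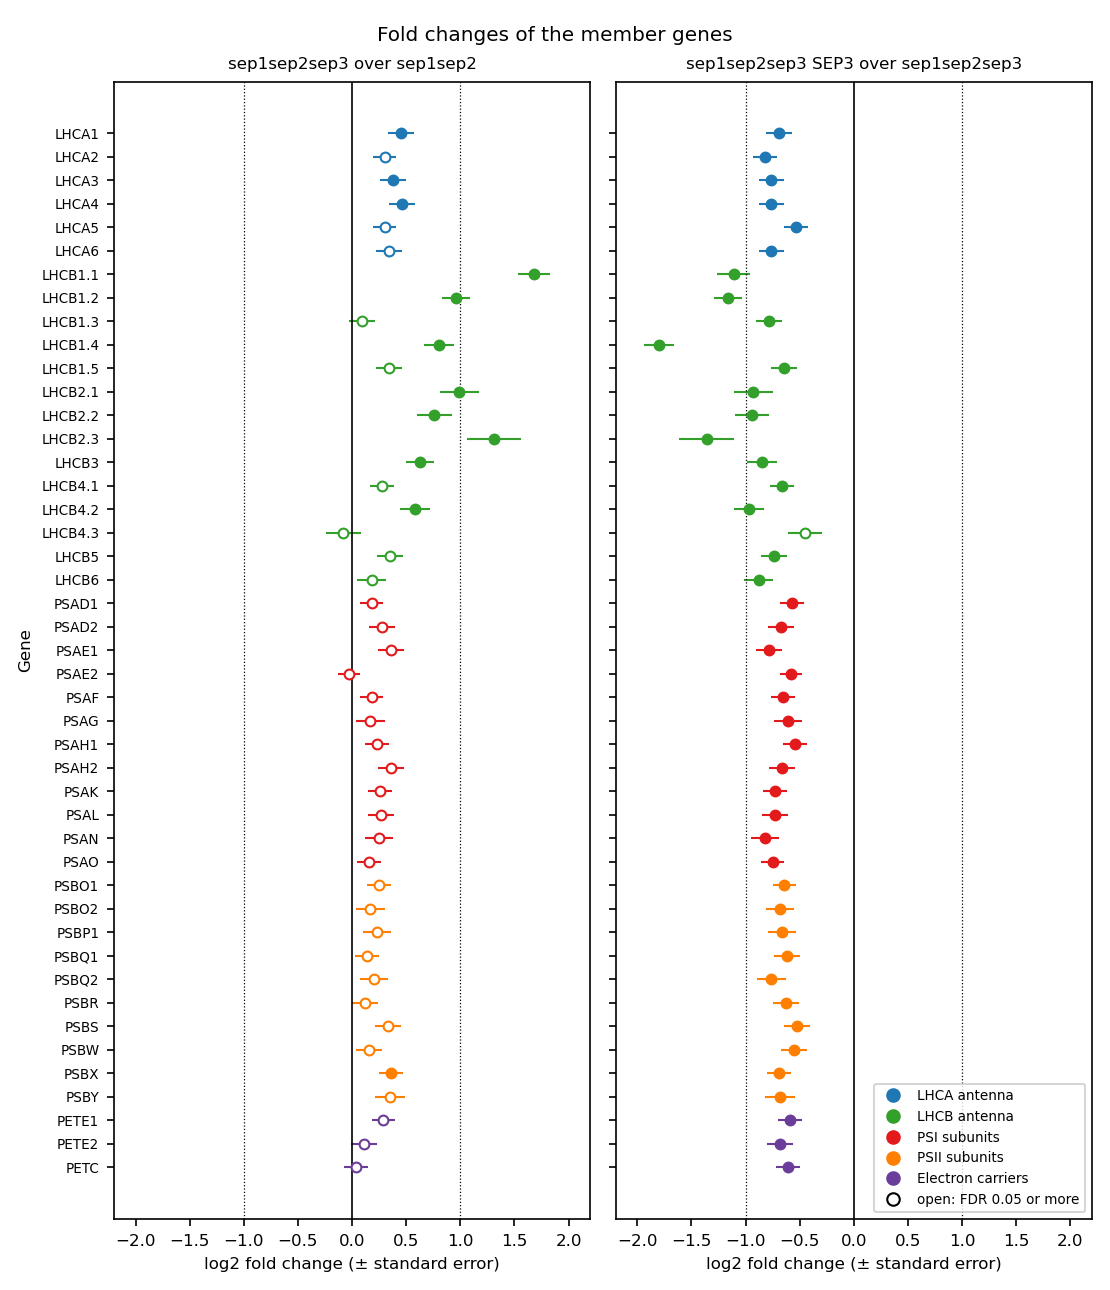
Log2 fold changes (points) with standard errors (bars) of the 45 genes, coloured by role, for the libraries labelled sep1sep2sep3 over sep1sep2 (left) and for sep1sep2sep3 SEP3 over the libraries labelled sep1sep2sep3 (right). Filled points have an FDR under 0.05 and dotted lines mark log2 fold changes of 1 and -1. On the left 12 points are filled and those of LHCB genes spread from -0.08 to 1.68, and on the right 44 are filled and all 45 lie below 0.

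The second comparison set the SEP3 lines against the libraries labelled sep1sep2sep3, which it shares with the first. Here 44 of the 45 genes fell at an FDR under 0.05 in edgeR's test, against 5.17% of all genes tested, and LHCB4.3 was the exception. None were higher, against 7.3% of all genes. Of the 45 genes, 4 fell past a log2 fold change of -1 (LHCB1.1, LHCB1.2, LHCB1.4 and LHCB2.3), against 0.55% of all genes. The median log2 fold change was -0.80 over the antenna genes and -0.66 over the photosystem subunit genes, beside 0.02 over all genes tested. In all 45 genes both SEP3 lines lay below both libraries labelled sep1sep2sep3, a separation that 23.5% of all genes showed.

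LHCB1.4 (AT2G34430) fell most, to 23.25 and 23.1 CPM in the SEP3 lines, against 75.62 and 85.52 CPM in the libraries labelled sep1sep2sep3 (log2 fold change -1.80 ± 0.14, FDR 6.04e-07). LHCB2.3 had 120.2 and 71.16 CPM in the SEP3 lines, against 167.4 and 324.7 CPM, a log2 fold change of -1.36 ± 0.25 with an FDR of 0.00194. Its spread was wide in both genotypes, and no value of one reached the other. LHCB1.2 and LHCB1.1 had log2 fold changes of -1.16 and -1.11, with FDR of 2.41e-05 and 0.000138 by edgeR's test. LHCB4.2 came next, with 426.4 and 357.2 CPM in the SEP3 lines against 668.3 and 868.9 CPM in the libraries labelled sep1sep2sep3 (-0.97). LHCB4.3, an LHCB4 gene with low levels, had 163.1 and 115.9 CPM against 165.9 and 215.8 CPM, so its nearest libraries almost touched (log2 fold change -0.45 ± 0.16, FDR 0.0796).

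Photosystem subunit genes fell within a narrow range of log2 fold changes, from -0.82 to -0.52, as did the electron carriers, from -0.68 to -0.59. PSAN, for a subunit on the lumen side of photosystem I, had 391.8 and 341.6 CPM in the SEP3 lines against 568.5 and 727.1 CPM in the libraries labelled sep1sep2sep3 (-0.82, FDR 0.000569). The smallest fall of a photosystem gene was that of PSBS, whose protein triggers the dissipation of excess light, with 704.8 and 585.8 CPM against 870.3 and 984.0 CPM (-0.52, FDR 0.00984). Close to it were PSAH1 with 125.8 and 120.8 CPM against 166.8 and 192.6 CPM, PSBW with 530.3 and 469.7 CPM against 683.5 and 784.2 CPM, and PSAD1 with 591.9 and 517.8 CPM against 786.0 and 865.2 CPM. Among the antenna genes, LHCA5, whose protein links photosystem I to the NDH complex, fell to 53.13 and 49.87 CPM against 69.85 and 79.08 CPM (-0.53, FDR 0.00556). LHCA6, which has a like role, fell to 24.2 and 22.78 CPM against 38.06 and 41.37 CPM (-0.76, FDR 0.000549). Of the 44 calls, 31 were kept in all 13 other settings and each was kept in at least 11. The count past -1 was 8 without the first and 2 without the second library labelled sep1sep2sep3, and 7 without SEP3 line 1.

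The libraries of 1 genotype also differed from each other across the set. The second library labelled sep1sep2sep3 was higher than the first in 44 of the 45 genes, by a median of 0.18 on the log2 scale, and SEP3 line 2 was lower than line 1 in 43, with a median of -0.18. In sep1sep2, 23 genes were higher in the second library and 22 in the first. Clock genes differed along with this. LHY, a clock gene that peaks around dawn, had 38.64 and 24.35 CPM in the SEP3 lines, 17.46 and 107.2 CPM in the libraries labelled sep1sep2sep3, and 6.415 and 7.412 CPM in sep1sep2. TOC1, an evening gene, had 50.55 and 80.72 CPM in the SEP3 lines, 64.63 and 37.54 CPM in the libraries labelled sep1sep2sep3, and 141.2 and 109.7 CPM in sep1sep2. Of 9 clock genes, 3 rose (CCA1, LHY and PRR9) and 4 fell (TOC1, GI, ELF4 and LUX) in the libraries labelled sep1sep2sep3 relative to sep1sep2. Among all genes tested, 5.74% rose and 10% fell there at an FDR under 0.05. In the SEP3 lines against the libraries labelled sep1sep2sep3, 0 of 9 passed edgeR's test at an FDR under 0.05. Of all genes, 7.3% were higher and 5.17% lower by it. An unadjusted p under 0.05 in that test was found for 2 of the 9 and for 5837 of the 25458 genes tested, a similar share. The part of these differences in the results on the 45 genes was not tested.

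The third comparison, which is not one of the study's, shares libraries with both others and set the SEP3 lines against sep1sep2. Of the 45 genes, 16 fell at an FDR under 0.05 in edgeR's test, against 2.73% of all genes, and 1 rose, against 1.39% of all genes. None passed a log2 fold change of 1 or -1 as well, which 0.365% of all genes did as higher and 1.14% as lower. An unadjusted p under 0.05 in edgeR's test was found for 37 of the 45, against 4360 of the 25458 genes tested. DESeq2's Wald test called 24 of the 45 lower at an FDR under 0.05, and its share over all genes was not counted. Both SEP3 lines lay below both sep1sep2 libraries in 41 of the 45 genes, against 23.1% of all genes, and the median log2 fold change was -0.39. The 16 were 4 antenna genes (LHCA2, LHCB1.3, LHCB1.4 and LHCB6), 10 photosystem subunit genes, and PETE2 and PETC.

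LHCB1.4 had 23.25 and 23.1 CPM in the SEP3 lines against 53.02 and 39.39 CPM in sep1sep2, with a log2 fold change of -1 that did not pass the threshold on it (FDR 0.00111). LHCB6, for a monomeric antenna protein of photosystem II, had 872.6 and 745.9 CPM against 1196 and 1436 CPM (-0.70, FDR 0.00659). LHCB1.3 had 4098 and 4106 CPM against 6695 and 6507 CPM (-0.69, FDR 0.00404). Both pairs were well apart, and LHCB1.3 differed little between libraries of 1 genotype. In photosystem I, PSAE2 had 127.8 and 124.7 CPM against 194.1 and 191.0 CPM in sep1sep2 (-0.61, FDR 0.00396), and PSAO, for a subunit at which the mobile antenna docks, had 528.0 and 494.2 CPM against 734.9 and 805.6 CPM (-0.59, FDR 0.00819). PSAF, at the plastocyanin docking site, had 755.2 and 690.6 CPM against 1011 and 992.4 CPM (-0.47, FDR 0.0325), and passed in 3 of 13 other settings with an FDR of up to 0.23. The gene that rose was LHCB1.1, with 1602 and 1267 CPM in the SEP3 lines against 954.1 and 975.2 CPM in sep1sep2 (0.57, FDR 0.0437). Its libraries did not overlap, and its FDR ran from 0.00769 to 0.298 over the other settings.

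The LHCB2 genes scattered between libraries in this comparison. LHCB2.1 had 618.3 and 433.0 CPM in the SEP3 lines against 448.9 and 557.6 CPM in sep1sep2, and LHCB2.2 had 622.4 and 443.8 CPM against 585.3 and 617.1 CPM. LHCB2.3 had 120.2 and 71.16 CPM against 102.7 and 96.43 CPM. The libraries of these genotypes overlapped in all 3 LHCB2 genes. The count of 16 lower genes also rested on single libraries, with 7 without the first and 3 without the second sep1sep2 library, 9 without SEP3 line 1 and 2 without line 2, and it was 6 after edgeR's filter on low counts and 4 with replicate numbers as a block.

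The make-up of the LHCB1 transcripts differed between genotypes. LHCB1.1 took 16.8 and 14.6% of all LHCB1 counts in the SEP3 lines and 16.6 and 20.3% in the libraries labelled sep1sep2sep3, against 8.09 and 8.15% in sep1sep2. LHCB1.3 took 43.1 and 47.2% in the SEP3 lines and 45.2 and 39.6% in the libraries labelled sep1sep2sep3, against 56.8 and 54.4% in sep1sep2. The SEP3 lines and the libraries labelled sep1sep2sep3 overlapped in both shares, and both genotypes lay apart from sep1sep2. In CPM, LHCB1.1 stood at 0.391 and 0.309 times LHCB1.3 in the SEP3 lines and at 0.368 and 0.514 times in the libraries labelled sep1sep2sep3, against 0.143 and 0.15 times in sep1sep2. LHCB1.2 had 1462 and 1184 CPM in the SEP3 lines, 2760 and 3166 CPM in the libraries labelled sep1sep2sep3, and 1522 and 1529 CPM in sep1sep2, so that the SEP3 lines lay just below sep1sep2. LHCB1.5 had 2330 and 2117 CPM in the SEP3 lines, 3255 and 3688 CPM in the libraries labelled sep1sep2sep3, and 2564 and 2914 CPM in sep1sep2. LHCB1.3 and LHCB1.5 are among the 16 of the 45 genes that overlap annotated genes on the other strand. The paper gives default parameters for counting and does not mention the strand. How reads in these overlaps were counted was not examined, so the levels of such genes are less certain.

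**Figure D3:**
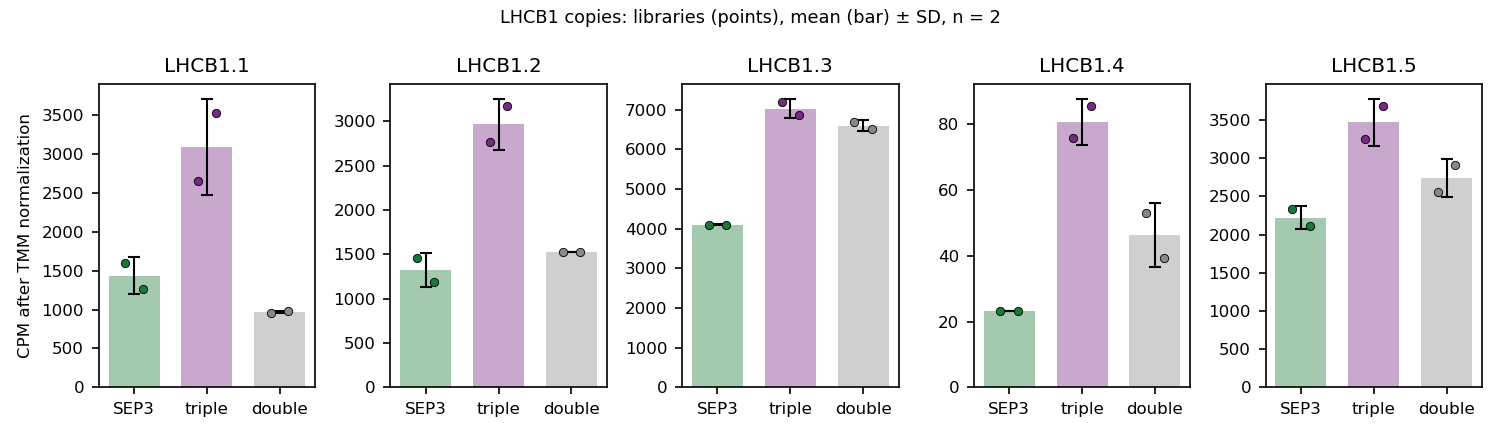
CPM of the 5 LHCB1 genes, 1 panel each with its own vertical axis, in sep1sep2sep3 SEP3 (SEP3), the libraries labelled sep1sep2sep3 (triple) and sep1sep2 (double). Points are libraries, bars are means and error bars are SD (n = 2). LHCB1.1 is lowest in sep1sep2, while LHCB1.2, LHCB1.3, LHCB1.4 and LHCB1.5 are lowest in the SEP3 lines.

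Antenna transcripts were also set against photosystem subunit transcripts within each library, which does not depend on the scaling between libraries. Summed antenna CPM were 1.74 and 1.76 times the summed photosystem subunit CPM in the SEP3 lines, 1.97 and 1.96 times in the libraries labelled sep1sep2sep3, and 1.63 and 1.70 times in sep1sep2. The ranges of the genotypes did not overlap, with the libraries labelled sep1sep2sep3 highest. With 2 libraries a genotype, these values are given without a test. Without the LHCB1 genes the ratio was 0.902 and 0.892 in the SEP3 lines, 0.968 and 0.997 in the libraries labelled sep1sep2sep3, and 0.821 and 0.866 in sep1sep2, in the same order. Within photosystem II, LHCB sums were 2.46 and 2.5 times the subunit sums in the SEP3 lines, 2.9 and 2.85 times in the libraries labelled sep1sep2sep3, and 2.35 and 2.48 times in sep1sep2, where the SEP3 lines and sep1sep2 overlapped. Within photosystem I, LHCA sums were 0.847 and 0.859 times the subunit sums in the SEP3 lines, 0.879 and 0.892 times in the libraries labelled sep1sep2sep3, and 0.768 and 0.783 times in sep1sep2. Photosystem I subunits stood at 0.804 and 0.824 times those of photosystem II in the SEP3 lines, 0.851 and 0.836 times in the libraries labelled sep1sep2sep3, and 0.843 and 0.85 times in sep1sep2, lowest in the SEP3 lines.

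**Figure D4:**
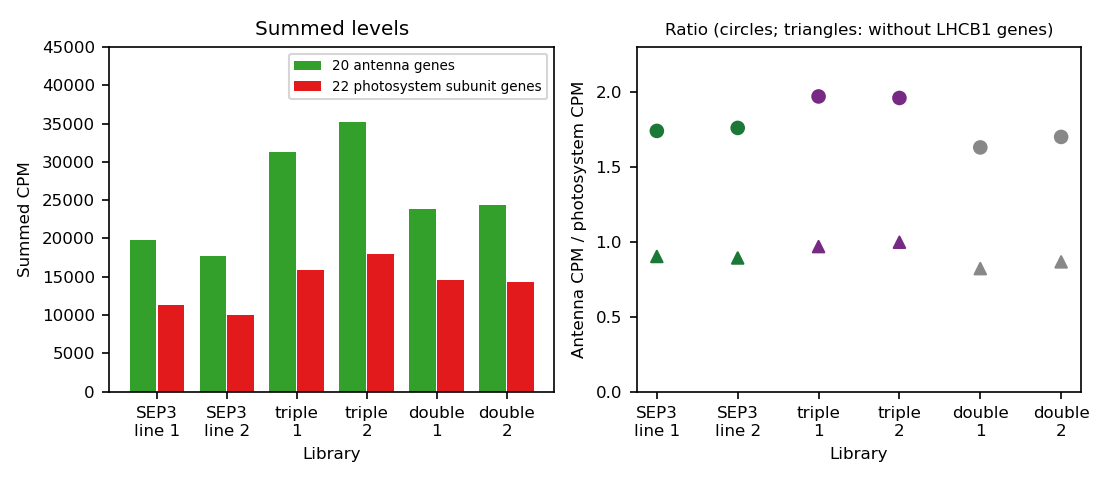
Left, summed CPM of the 20 antenna genes (green) and the 22 photosystem subunit genes (red) in each library. Right, their ratio in each library (circles), also without the LHCB1 genes (triangles), with the SEP3 lines in green, the libraries labelled sep1sep2sep3 in purple and sep1sep2 in grey. The circles stand highest, at 1.97 and 1.96, in the libraries labelled sep1sep2sep3.

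Several subunits are encoded by pairs of genes, compared here in CPM per kb. PSAD1 stood at 1.71 to 2.03 times PSAD2 over the 6 libraries, PSBO1 at 4.09 to 4.77 times PSBO2 and PSBQ1 at 1.15 to 1.36 times PSBQ2, and in these pairs no genotype lay apart from both others. PSAD and PSAE sit where ferredoxin docks, PSAH helps to dock the mobile antenna, and PSBO and PSBQ shield the site of water splitting. PSAH2 stood at 3.73 and 3.3 times PSAH1 in the SEP3 lines, 3.8 and 3.84 times in the libraries labelled sep1sep2sep3, and 3.39 and 3.61 times in sep1sep2. PSAE1 stood at 1.8 and 1.53 times PSAE2 in the SEP3 lines, 1.9 and 1.93 times in the libraries labelled sep1sep2sep3, and 1.51 and 1.41 times in sep1sep2. In both pairs the libraries labelled sep1sep2sep3 were highest and did not overlap with the others. The major plastocyanin gene PETE2 stood at 5.94 and 6.07 times PETE1 in the SEP3 lines, 6.27 and 6.48 times in the libraries labelled sep1sep2sep3, and 7.17 and 7.36 times in sep1sep2, with no overlap. PETE1 had 94.72 and 81.28 CPM in the SEP3 lines, 127.8 and 137.2 CPM in the libraries labelled sep1sep2sep3, and 106.8 and 109.3 CPM in sep1sep2.

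In CPM the PSAD, PSAE, PSAH, PSBO and PSBQ genes were lowest in the SEP3 lines, and PSAE2 had 182.3 and 194.5 CPM in the libraries labelled sep1sep2sep3, overlapping with its sep1sep2 values given above. PSAD2 had 253.8 and 227.3 CPM in the SEP3 lines, 340.5 and 425.6 CPM in the libraries labelled sep1sep2sep3, and 326.0 and 304.3 CPM in sep1sep2. PSAE1 had 302.6 and 250.3 CPM in the SEP3 lines, 455.4 and 493.4 CPM in the libraries labelled sep1sep2sep3, and 385.4 and 355.1 CPM in sep1sep2. PSAH2 had 253.1 and 214.9 CPM in the SEP3 lines, 342.2 and 399.7 CPM in the libraries labelled sep1sep2sep3, and 290.2 and 288.6 CPM in sep1sep2. In each of these 3 genes the SEP3 lines were lowest and the libraries labelled sep1sep2sep3 highest, with no overlap. PSBO1 had 1287 and 1204 CPM in the SEP3 lines, 1869 and 2017 CPM in the libraries labelled sep1sep2sep3, and 1641 and 1621 CPM in sep1sep2. PSBO2 had 265.7 and 222.1 CPM in the SEP3 lines, 347.3 and 433.0 CPM in the libraries labelled sep1sep2sep3, and 353.3 and 341.5 CPM in sep1sep2. Here PSBO1 kept the 3 genotypes apart, while PSBO2 overlapped between the libraries labelled sep1sep2sep3 and sep1sep2. PSBQ1 had 489.9 and 433.1 CPM in the SEP3 lines, 668.0 and 754.2 CPM in the libraries labelled sep1sep2sep3, and 640.6 and 649.7 CPM in sep1sep2. PSBQ2 had 492.6 and 406.0 CPM in the SEP3 lines, 705.6 and 820.1 CPM in the libraries labelled sep1sep2sep3, and 711.4 and 615.6 CPM in sep1sep2, overlapping between the last 2 genotypes.

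Other members lay in the same order of genotypes in most cases. LHCA4 had 1435 and 1323 CPM in the SEP3 lines and PSAF 1076 and 1191 CPM in the libraries labelled sep1sep2sep3, next to the values given above. PETE2 had 723.2 and 633.6 CPM, PETC 319.6 and 285.2 CPM and PSBR 770.1 and 686.4 CPM in the SEP3 lines, all below the other genotypes. In the libraries labelled sep1sep2sep3, LHCB6 had 1448 and 1528 CPM and PSAO 842.7 and 877.3 CPM, both highest of the 3 genotypes. In sep1sep2, LHCB4.2 had 541.2 and 488.7 CPM, LHCA5 56.62 and 64.21 CPM, LHCA6 31.2 and 31.56 CPM, PSAH1 158.6 and 148.1 CPM, PSBS 728.3 and 744.6 CPM, PSBW 656.9 and 654.2 CPM, PSAD1 722.3 and 733.5 CPM and LHCB4.3 190.8 and 212.6 CPM. All of these but LHCB4.3 lay between the other genotypes, the sep1sep2 range of LHCB4.3 lying within that of the libraries labelled sep1sep2sep3.

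Other genes of the same pathway were counted in the same fit. At an FDR under 0.05, 5.74% of all genes tested rose in the first comparison and 5.17% fell in the second. GLK1 (AT2G20570), a factor that drives antenna and chlorophyll genes, had 53.81 and 39.03 CPM in the SEP3 lines, 131.7 and 150 CPM in the libraries labelled sep1sep2sep3, and 61.45 and 55.63 CPM in sep1sep2. It rose by 1.27 in the libraries labelled sep1sep2sep3 (FDR 1.96e-05) and had a log2 fold change of -1.60 in the SEP3 lines relative to them (FDR 2.21e-06, edgeR). GLK2 had 20.33 and 17.66 CPM in the SEP3 lines, 28.32 and 40.56 CPM in the libraries labelled sep1sep2sep3, and 16.23 and 15.91 CPM in sep1sep2, with log2 fold changes of 1.1 and -0.86 that both passed the test. GNC, a GATA factor known to promote greening, had 10.81 and 10.16 CPM in the SEP3 lines, 16.21 and 28.65 CPM in the libraries labelled sep1sep2sep3, and 10.22 and 7.328 CPM in sep1sep2 (log2 fold changes 1.36 and -1.10). Of the 6 regulators listed, 4 rose in the first comparison and 4 fell in the second at an FDR under 0.05, the fourth being GUN1, and without the second library labelled sep1sep2sep3 1 fell, and without SEP3 line 2, 2 fell.

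Of 16 chlorophyll synthesis genes, 5 rose in the libraries labelled sep1sep2sep3 (GUN4, CHLH, CHLD, CHL27 and CAO, with log2 fold changes from 0.35 to 0.84) and 1 fell. Among all genes tested, 5.74% rose and 10% fell. The count of 5 was 3 without the second sep1sep2 library, 3 without the second library labelled sep1sep2sep3 and 3 with the replicate block. The gene that fell was PORA, a protochlorophyllide reductase gene. It was at most 0.06782 CPM in the libraries labelled sep1sep2sep3, and 0.9503 and 0.5829 CPM in sep1sep2. These are 0 and 2 counts against 24 and 14 counts, too few to give the size of the fall. The list median of the log2 fold change in the SEP3 lines relative to the libraries labelled sep1sep2sep3 was -0.49. There 14 of the 16 fell, against 5.17% of all genes. This count was 2 without the second library labelled sep1sep2sep3, 8 without SEP3 line 1 and 3 without line 2. By the same rule, 5.74% of all genes rose in the first comparison and 5.17% fell in the second. Of 9 genes for antenna targeting and assembly, 2 rose (cpSRP43, which escorts antenna proteins to the thylakoid, and the kinase gene STN7) and 5 fell in the second comparison. Without single libraries these counts ran from 0 to 2 (0 without the second sep1sep2 library or the second library labelled sep1sep2sep3) and from 2 to 5 (2 without either SEP3 line and 3 without the first library labelled sep1sep2sep3), and the count of 2 was 1 with the replicate block.

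Of 16 other thylakoid genes, 4 rose in the first comparison, against 5.74% of all genes tested, and 12 fell in the second, against 5.17%. Those that rose were PGR5, CURT1B and the early light-induced genes ELIP1 and ELIP2, which are known for photoprotection. ELIP1 had 42.26 and 13.06 CPM in the SEP3 lines, 33.59 and 58.19 CPM in the libraries labelled sep1sep2sep3, and 10.29 and 19.99 CPM in sep1sep2 (log2 fold change 1.60 in the first comparison, FDR 0.0144). ELIP2 had 7.003 and 4.919 CPM in the SEP3 lines, 3.843 and 8.749 CPM in the libraries labelled sep1sep2sep3, and 2.138 and 2.998 CPM in sep1sep2 (1.3, FDR 0.0217). The 2 libraries labelled sep1sep2sep3 differed widely in both. The count of 4 was 1 without the first and 2 without the second sep1sep2 library, 0 without the second library labelled sep1sep2sep3 and 1 with the replicate block, and the count of 12 was 4 without the second library labelled sep1sep2sep3 and 5 without SEP3 line 2. Values of the clock genes CCA1, PRR9 and LUX follow. CCA1 had 31.76 and 21.17 CPM in the SEP3 lines, 25.32 and 69.45 CPM in the libraries labelled sep1sep2sep3, and 8.592 and 9.91 CPM in sep1sep2. PRR9 had 11.98 and 6.37 CPM in the SEP3 lines, 13.28 and 19.67 CPM in the libraries labelled sep1sep2sep3, and 2.693 and 2.831 CPM in sep1sep2. Neither overlapped between sep1sep2 and the other genotypes, as was the case for LUX, with 18.92 and 28.18 CPM in the SEP3 lines, 26.44 and 11.6 CPM in the libraries labelled sep1sep2sep3, and 54.76 and 51.46 CPM in sep1sep2. Between the SEP3 lines and the libraries labelled sep1sep2sep3, PRR9 did not overlap (log2 fold change -0.84, FDR 0.0507 by edgeR's test). CCA1, LUX, LHY and TOC1 did overlap there.

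**Figure D5:**
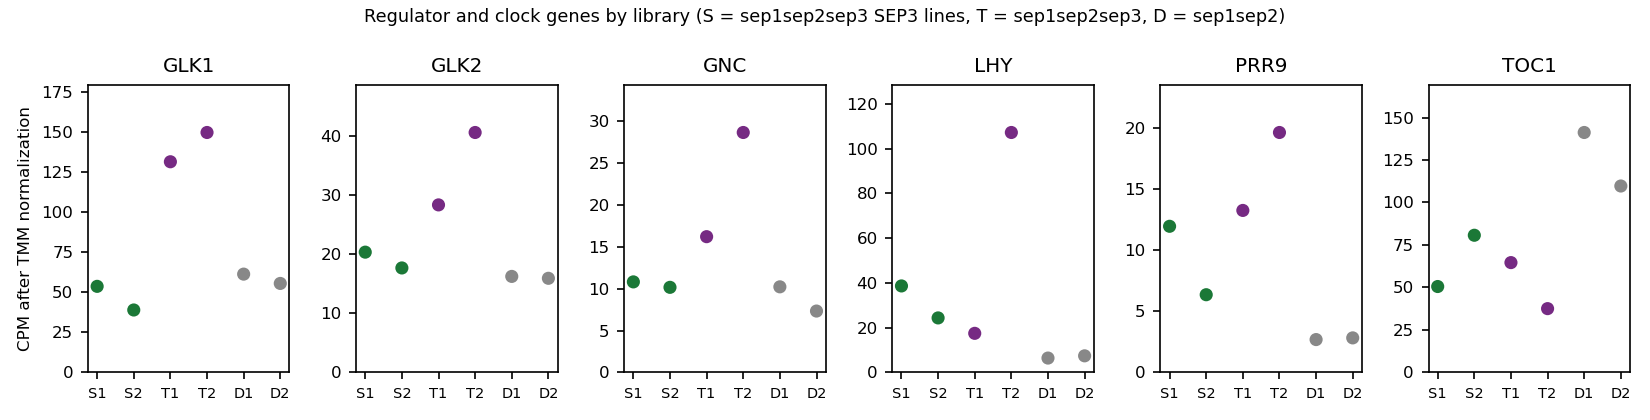
CPM of the regulator genes GLK1, GLK2 and GNC and the clock genes LHY, PRR9 and TOC1 in each library, with SEP3 lines (S), libraries labelled sep1sep2sep3 (T) and sep1sep2 (D) from left to right and a vertical axis from 0 in each panel. GLK1 stands at 131.7 and 150 CPM in T and at most 61.45 CPM elsewhere, and LHY at 107.2 CPM in the second T library stands apart from the first.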

How the data were processed

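The counts deposited by the authors are whole numbers for each gene, made by mapping read pairs to TAIR10 with STAR (no multimapping) and counting with featureCounts at default settings, with versions not given in the sources used here. Between 85.9 and 88.3% of counts from 1 to 20 were even, as when both reads of a pair are counted. The deposited tables of the authors' own comparisons hold log2 fold changes, p-values and FDR values and were not used here. From the counts, all 25458 genes with a count were tested with the quasi-likelihood test of edgeR 4.0.16 in R 4.3.3, after TMM normalization, in one fit of 6 libraries with a mean per genotype. P-values were adjusted by the Benjamini-Hochberg method, with thresholds of 0.05 for FDR and, as in the study, 1 for the log2 fold change. The prior count was 0.125. The scripts were tested on simulated data. Library totals were 24000063 to 31263376 counts. Alternatives were other scalings, halved counts, a filter on low counts, a replicate block, DESeq2 1.42.0 and leaving out each library. Gene models, motifs and sequences came from TAIR10.1, matched by gene identifier, and coordinates are those of TAIR10.1.

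The 45 genes and all lists were chosen with earlier results of these data known. Every library value is given for the 5 members with the largest and the 5 with the smallest log2 fold change of each comparison among those that passed an FDR of 0.05 in any, the LHCB1 genes, both members of each gene pair, the highest and lowest member of each role, GLK1, GLK2, the SEP genes and up to 5 called genes of each pathway list. Tapetum, carpel and ovule markers are given as sums.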

Additional observations from a re-analysis of the deposited data

How the results depend on the processing

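The direction of the members' medians was the same in all 13 other settings of all 3 comparisons, and with 2 libraries per genotype a lone library left by an omission is assumed to vary like the others. Of single-gene values under other settings, 1694 kept their direction and side of the threshold, 149 fell short of it, 23 newly passed it and 23 reversed, and the cause was not tested. Genes higher in the libraries labelled sep1sep2sep3 than in sep1sep2 numbered 2 with both thresholds, 1 without the LHCB1 genes, 12 by FDR alone and 1 to 4 with single libraries left out. By FDR alone the 12 became 21 with the DESeq2 Wald test and 4 to 12 with single libraries left out. Genes lower in the SEP3 lines than in the libraries labelled sep1sep2sep3 numbered 4, 1 without the LHCB1 genes, 44 by FDR alone and 2 to 8 with single libraries left out, and the 44 became 31 to 45. Genes lower in the SEP3 lines than in sep1sep2 numbered 0 (0 to 1 with single libraries left out), 16 by FDR alone, 6 after filterByExpr and 2 to 14 with single libraries left out. The replicate numbers did not pair the libraries (correlations of deviations -0.112, -0.022 and -0.059 over 18703 genes). With the replicate block these FDR counts were 8, 44 and 4, those with both thresholds 2, 4 and 0, and the counts of chlorophyll, targeting, regulator and thylakoid genes higher in the first comparison 3, 1, 3 and 1. With the numbers of the libraries labelled sep1sep2sep3 crossed, an alternative chosen after seeing the data, the FDR counts were 16, 44 and 19. The share of all genes called was counted for the fit used in the Results and not for the other settings. Counts under other settings are thus not read as results about the 45 genes.

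With single libraries left out, chlorophyll counts were 3 to 4 and 2 to 14, targeting 0 to 2 and 2 to 5, regulators 3 to 5 and 1 to 4, and other thylakoid genes 0 to 5 and 4 to 12 in the first and second comparison. The mean antenna to photosystem ratio in the SEP3 lines, the libraries labelled sep1sep2sep3 and sep1sep2 was 0.897, 0.982 and 0.843 without the LHCB1 genes, 1.44, 1.62 and 1.37 per kb, and 1.55, 1.65 and 1.45 from median CPM. Scaling by total counts alone moved the share of calls that were higher among all genes to 72.8% (58.6% with TMM) in the second and 54.3% (33.8%) in the third comparison, with member medians of 0.26, -0.6 and -0.32.

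With single libraries left out, log2 fold changes that reversed ran, in the first comparison, from -0.08 to 0.01 for PSAE2, from -0.04 to 0.11 for PETC and from 0 to 0.32 for PSBO2. In the second they ran from -0.55 to 0.64 for ELIP2 (0.02 by total counts and 0.02 with the replicate block), from -1.39 to 0.07 for CCA1, from -1.76 to 0.85 for LHY, from -0.17 to 1.02 for LUX and from -0.01 to 0.8 for TOC1, and CCA1, LHY and LUX reversed without the second library labelled sep1sep2sep3. In the third they ran from -0.22 to 0.3 for LHCB2.1, from -0.44 to 0.05 for LHCB2.2, from -0.48 to 0.27 for LHCB2.3 (0.01 by total counts), from -0.21 to 1.48 for ELIP1, from -0.1 to 0.83 for SEP1 and from -1.89 to 0.81 for SEP2 (-0.2 with the block and -0.36 with the crossed block). Precision is limited by the 2 libraries per genotype.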
